A study of Mus musculus with 12 samples.

Results

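Zfp57 (ENSMUSG00000036036) is 1 gene of the 20409 protein-coding mouse genes to which cassette insertions were assigned, and it was taken by its symbol and gene identifier. It held 1902 of the 1211238 insertions counted within 200 kb of an assigned exon over 12 libraries. Reading the same positions with their strand reversed gave 603 of 1190465. The libraries came from ORFtag screens. A retrovirus lands somewhere in the genome of each cell, and its own promoter transcribes a tag that is spliced onto whichever gene follows on the same strand, so the cell makes that protein with the tag at its N-terminal end. Each of 3 screens asked which tagged proteins change the GFP level of a reporter, and gave 2 libraries of sorted and 2 of unsorted cells.

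The cells were mouse embryonic stem (mES) cells, labelled wild type with a reporter, and each reporter line was 1 clone. In the activator screen the reporter was 7xTetO-pMYLPF-Puro-IRES-GFP, placed at an expression-stable locus on chromosome 15. In the repressor screen it was pEF1-BFP-7xTetO-pPGK-Puro-IRES-GFP at the same chromosome 15 locus. In the screen for posttranscriptional gene regulators (PTGR) it was Puro-IRES-GFP-10xBoxB, integrated at random, and per the study's methods these cells also carried a CreERT2 transgene, selected with hygromycin. The tag was TetR, which binds TetO sites in DNA, in the activator and repressor screens, and λN, which binds boxB sites in RNA, in the PTGR screen. All cells, unsorted ones included, had been transduced and selected with G418, and cassettes for the 3 reading frames were mixed. Cells with raised GFP were taken in the activator screen and cells with lowered GFP in the other 2. The PTGR screen added a sort for cells that regained GFP once 4-hydroxytamoxifen had activated Cre to remove the boxB sites.

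Zfp57 encodes a zinc finger protein with a KRAB domain. It binds methylated DNA at imprinting control regions and, through the corepressor Trim28 (KAP1), brings the H3K9 methyltransferase Setdb1, HP1 proteins and DNA methyltransferases to them. In early embryos and ES cells this is known to keep parental methylation marks that are otherwise erased.

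In GENCODE M21 on mm10, Zfp57 lies at chr17:37001163-37010635 on the plus strand. The model that begins farthest upstream has 6 exons and a coding sequence of 1254 bases, with the start codon at position 37004886, near the end of exon 4. The cassette can be spliced only to an acceptor, so the acceptors to which insertions were assigned are printed with the start codon, because they set what part of the protein a fusion can hold. Each stretch is 30 bases of the plus strand of mm10, 5′ to 3′, and capitals mark the AG that ends the intron or the ATG. Labels follow the 6-exon model that begins farthest upstream, whose exon 5 starts at 37006059, after the second capital AG of that stretch. Other models begin this exon at 37006050, after the first AG, and number it 2, 3 or 4. Insertions were assigned to the acceptor at 37006050.
Exon 2, chr17:37002432-37002461: aatggaatttcctagcgcAGctgagaccag
Exon 3, chr17:37003266-37003295: ttagtctcttgccttctcAGggctcctgca
Exon 4, chr17:37004777-37004806: ctatttttcttaaaccttAGatttctagaa
Exon 5, chr17:37006030-37006059: ctctgtatttacattctaAGtcttcccAGc
Exon 6, chr17:37009399-37009428: ttttccctcctctactatAGgaagcaagaa
Start codon, chr17:37004874-37004903: cattaccaaacaATGgcagctaggaaacag
The 18 bases before the AG of exon 2 held 9 pyrimidines, and those before the other 4 acceptors held 13 to 16. Exons 2 and 3 lie before the start codon. A transcript spliced to exon 2 of that model holds 445 bases before the ATG, with 4 stop codons in the frame of that ATG. From exon 3 the stretch is 119 bases and from exon 4 it is 89, each with 2 such stop codons. A model that leaves out exon 4 starts at 37006161, with 141 bases and 0 in-frame stop codons from exon 3. In the 6-exon model that begins farthest upstream, exons 5 and 6 are coding at their acceptors, while in the model without exon 4 the acceptor at 37006050 lies 111 bases before the start codon. Which exons the fusion transcripts joined was not measured in these libraries.

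A sorted library held 14705 to 60980 insertions within 200 kb and an unsorted library 54088 to 233799, which is the depth behind each share. Each position was counted once per library, and the lists gave no read numbers. The repressor unsorted lists held every position more than once, 440 and 400 lines for 220 and 200 Zfp57 positions. The study describes 2 biological replicates per group. Over all genes the 2 repressor sorted libraries shared 18.8% and 27.5% of their sense positions. The activator sorted libraries shared 2.21% and 2.61%, and the PTGR sorted ones 0.648% and 0.675%. Whether the repressor sorted libraries are independent was not tested, and every SD and test over libraries treats them as such. Shares carry 95% Wilson intervals, which cover counting error only.

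Insertions at Zfp57 were abundant in the repressor screen. The repressor sorted libraries held 564 and 520 Zfp57 insertions, or 253 (233 to 275) and 342 (314 to 372) per 10000 insertions of the library. The repressor unsorted libraries held 220 and 200, or 12.6 and 11.3 per 10000. Every other library lay below these 4, with no overlap between the groups.

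In the activator screen the sorted libraries held 6 and 7 Zfp57 insertions (3.45 and 4.76 per 10000) and the unsorted libraries 90 and 91 (5.13 and 4.38 per 10000). In the PTGR screen the sorted libraries held 19 and 25 (3.12 and 4.27 per 10000) and the unsorted libraries 129 and 31 (5.52 and 5.73 per 10000). The intervals of these 8 libraries overlapped, so their order is not resolved. Those of the 2 repressor unsorted libraries overlapped as well, whereas those of the 2 repressor sorted libraries did not. By number of insertions Zfp57 ranked 2 and 1 among the 5467 and 4363 genes hit in the repressor sorted libraries, 1 and 3 in the repressor unsorted ones, and between 86 and 410 in the remaining 8.

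**Figure D1:**
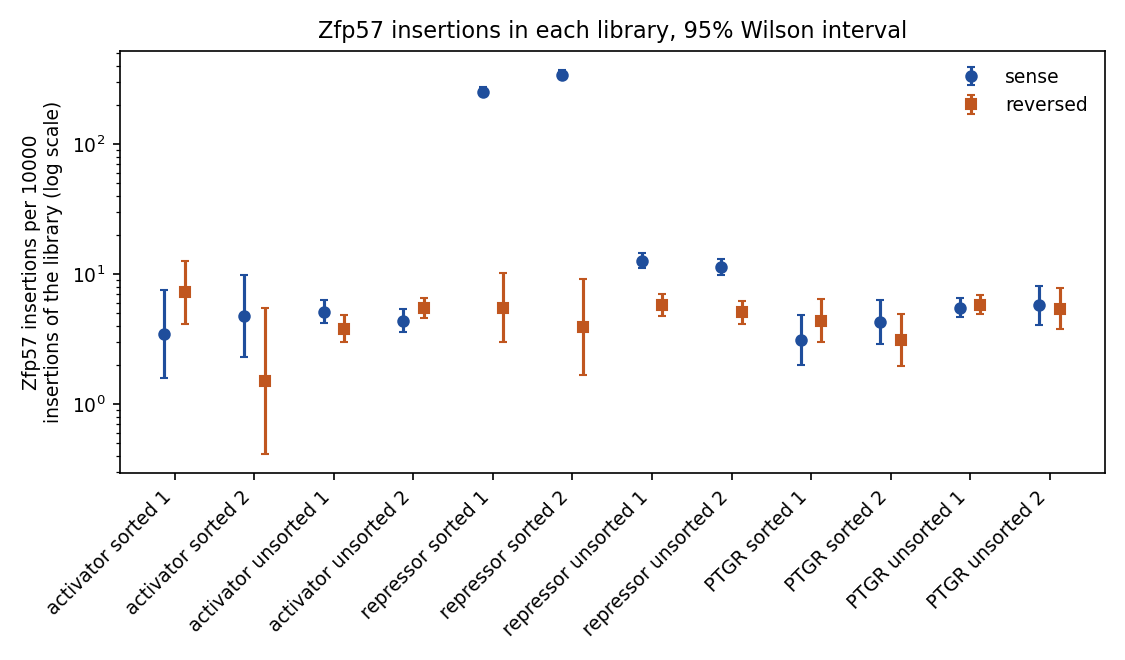
Zfp57 insertions per 10000 insertions of the library (log axis) in each of the 12 libraries, for sense and reversed insertions, with 95% Wilson intervals. Sense insertions reach 253 and 342 in the repressor sorted libraries and 12.6 and 11.3 in the repressor unsorted ones, while all reversed values lie under 8.

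The repressor screen asks whether tagged Zfp57 lowers expression of the reporter to which it is brought. The repressor sorted libraries together held 1084 Zfp57 insertions of 37470, or 2.89%, against 761 of 1022126 over the 6 unsorted libraries. The log2 odds ratio was 5.32 (SE 0.07) and the adjusted p of the one-sided Fisher's exact test was below 1e-300. The study's methods call a gene a hit at an adjusted p under 0.001 if its log2 odds ratio is no lower than 1, and 8.18% of the 2346 tested genes met this. Zfp57 held the most sorted insertions of all genes and ranked 47 among tested genes by log2 odds ratio. Against the repressor unsorted libraries alone the log2 odds ratio was 4.64, and against the 4 other unsorted libraries it was 5.87. With positions within 10 bp joined, 564 became 320, 520 became 293, and the log2 odds ratio was 4.75.

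The difference was larger than the spread between libraries. The mean was 298 ± 62.7 per 10000 (SD, n = 2) in repressor sorted and 7.45 ± 3.55 (SD, n = 6) in unsorted cells, a 40.0-fold ratio, with an exact one-sided permutation p of 0.0357 (adjusted over the 3 screens, 0.107). That p is the smallest that 28 splits allow, so a screen can pass 0.05 after adjustment only if all 3 screens reach it. The quasi-likelihood test of edgeR on repressor sorted against repressor unsorted libraries gave a log2 fold change of 5.49 with an adjusted p of 2.28e-22, where 8.37% of 2569 genes were called.

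Neither of the other screens enriched Zfp57 by the same test. The activator sorted libraries held 13 of 32102 insertions. The log2 odds ratio was −0.88 (SE 0.40, adjusted p = 1.00 by the Fisher test), where 4.64% of tested genes were called. The value was −0.22 against the activator unsorted libraries alone. The edgeR test, also against those libraries, gave 0.18 (adjusted p = 0.955), so no direction holds. The PTGR sorted libraries held 44 of 119540, with −1.02 (SE 0.22) and an adjusted p of 1, where 0.666% were called.

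A two-sided Fisher's exact test put the PTGR value below background (adjusted p = 9.29e-05), as for 0.129% of tested genes. The tests that take in the spread between libraries did not call it: edgeR gave −0.48 (adjusted p = 1.00) and DESeq2 −0.47 (adjusted p = 1). Those tests used the PTGR unsorted libraries alone, so they differ from the Fisher test in background as well. The odds ratio was −0.59 (SE 0.25) against the PTGR unsorted libraries alone and −0.47 (SE 0.23) without the repressor unsorted libraries. The difference between screens was itself tested with edgeR: the repressor effect exceeded the activator effect by 5.30 on the log2 scale (adjusted p = 4.82e-12, 8.21% of genes called) and the PTGR effect by 5.97 (adjusted p = 1.26e-15, 6.46% called).

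Reversed insertions lie at the same locus but point away from Zfp57, and serve as a control for access to it. The repressor sorted libraries held 10 and 5 of them and the repressor unsorted libraries 99 and 89. The activator libraries held 12 and 2 sorted and 66 and 113 unsorted, and the PTGR libraries 26 and 18 sorted and 134 and 29 unsorted. In no screen were the sorted libraries above the unsorted ones by the Fisher test.

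The log2 odds ratio of reversed insertions was −0.11 (SE 0.38) in the repressor screen, where 5.61% of tested genes were called. It was −0.16 (SE 0.39) in the activator screen, where 3.14% were called, and −0.49 (SE 0.23) in the PTGR screen, where 0.5% were called. The repressor and activator values changed sign under other settings without passing a threshold.

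Of all Zfp57 insertions, 98.3% and 99.05% were sense in the repressor sorted libraries and 69.0% and 69.2% in the repressor unsorted libraries. The other 4 unsorted libraries held 57.7%, 44.6%, 49.0% and 51.7%. The 2 repressor unsorted libraries lay above the other unsorted ones and below the sorted ones. Sense over reversed, sorted over background, had a log2 odds ratio of 5.65 (SE 0.38) and an adjusted p of 3.20e-141 by the Fisher test, where 2.45% of tested genes were called.

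The unsorted repressor cells stood apart from the other unsorted cells at Zfp57, a comparison added after the values were seen. They held 11.96 ± 0.93 sense insertions per 10000 (SD, n = 2) against 5.19 ± 0.59 (SD, n = 4), a 2.305-fold ratio, while reversed insertions differed 1.06-fold. The edgeR contrast was 1.20 on the log2 scale for sense insertions (adjusted p = 0.0066, 1.48% of genes called) and 0.05 for reversed ones (adjusted p = 0.958, 1.47% called). The sense call was lost when any 1 of the 6 unsorted libraries was left out (1.13 to 1.29, adjusted p from 0.0678 to 0.657) and when positions found in more than 1 library were left out (0.53, adjusted p = 0.805). That filter falls mostly on repressor unsorted positions, which matched repressor sorted ones more often, so a lower value follows in part from it. Of 12 alternatives 5 kept the call, DESeq2 among them (1.18, adjusted p = 0.0092). Over the 188 repressor hits with values, the median log2 ratio of repressor unsorted to other unsorted cells was 0.60, with 156 above 0. Over 15740 genes it was −0.03, with 7642 above 0, and for Zfp57 it was 1.23. Since these 2 libraries are part of the background, they lower the odds ratios given for sorted repressor cells.

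Most sorted insertions were assigned to exon 2, the first of the acceptors that precede the coding sequence. That acceptor is in 1 gene model, against 7 or 8 for each of the others. Every Zfp57 insertion upstream of it gets this label by the closest-exon rule, so the exon 2 value largely repeats that of the whole gene. Exon 2 took 554 and 507 of the 564 and 520 repressor sorted insertions, or 97.9%, and 97.4% of the background ones. For exon 2 the log2 odds ratio came to 5.33 (SE 0.07, adjusted p below 1e-300 by the Fisher test). Of 3 exon labels tested for Zfp57 2 passed, where 12.8% of all gene and exon features passed.

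The label exon 4 took 8 and 12 repressor sorted insertions against 9 in the background, a log2 odds ratio of 5.92 (SE 0.58, adjusted p = 1.24e-21 by the Fisher test). It joins 2 acceptors, because exons are numbered by transcript: 14 of the sorted insertions preceded the acceptor at 37004797, just before the start codon, and 6 the acceptor at 37006050, inside the coding sequence. Exon 6 took 2 and 1 against 11 (2.90, SE 0.94, adjusted p = 0.0674), and exon 3 took 0 sense insertions in any library. The sorted insertions assigned to these labels number 20 and 3, so these values rest on few insertions.

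By distance to the assigned exon, every class that held Zfp57 insertions was enriched in the repressor screen. The repressor sorted libraries held 50 and 47 insertions within 2 kb, 138 and 140 from 2 to 5 kb, 243 and 207 from 5 to 10 kb, and 114 and 119 from 10 to 20 kb. Their log2 odds ratios were 5.40 (SE 0.23), 6.07 (SE 0.16), 5.98 (SE 0.12) and 5.35 (SE 0.15).

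From 20 to 50 kb the counts were 19 and 7, with a log2 odds ratio of 1.63 (SE 0.30, adjusted p = 1.08e-05 by the Fisher test). Without repressor sorted replicate 1 it was 1.03 and no longer passed (adjusted p = 0.106). Beyond 50 kb no library held a Zfp57 insertion. All 5 classes were called, where 21.8% of all gene and distance features were. Whether classes differ from each other was not tested.

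The median distance was 7199 and 6443 bp in repressor sorted, 8700 and 7480 bp in repressor unsorted, and 14233 to 20861 bp in the other unsorted libraries. Within 10 kb lay 76.4% and 75.8% of the repressor sorted insertions and 55.5% and 65.5% of the repressor unsorted ones. In the other 4 unsorted libraries the share was 31.1% to 38.5%.

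**Figure D2:**
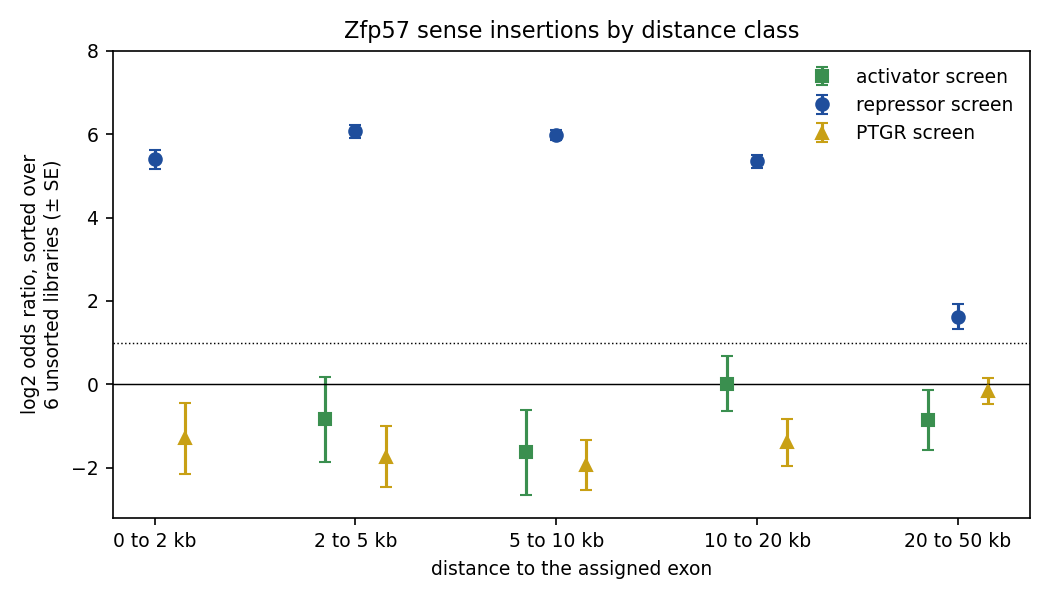
Log2 odds ratio of Zfp57 sense insertions in sorted cells of each screen over the 6 unsorted libraries, by distance class; error bars are the SE from counting, the dotted line is the threshold of 1, and a class with 0 sorted insertions has no point. In the repressor screen the 4 classes up to 20 kb lie between 5.35 and 6.07 and the class from 20 to 50 kb at 1.63, while no class of the other screens was called.

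Along the chromosome the sorted insertions filled a block with a sharp outer edge, described after the values were seen. The block ran from exon 2 back to chr17:36988557 in repressor sorted replicate 1 and to 36988612 in replicate 2, which is 13894 bp before the exon at its farthest. It held 535 and 500 insertions, 95.5% of those at Zfp57, or 276 per 10000. The repressor unsorted libraries held 152 and 150 there (8.60 per 10000) and the other unsorted libraries 143 in all (2.13 per 10000).

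The bounds of the next 6652 bp outward, chr17:36981905-36988556, were set by the repressor sorted positions on either side of it, so its counts of 0 and 0 in those libraries follow from that choice and are not a result. The 6 unsorted libraries held 71 there, or 0.695 per 10000. In this stretch the repressor unsorted libraries held 0.712 per 10000 and the other unsorted ones 0.686 per 10000. The bounds leave out every position shared with the repressor sorted libraries, and the repressor unsorted libraries shared many. The comparison of unsorted libraries there is thus not a result either. Farther out lay the remaining 19 and 7 sorted insertions.

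**Figure D3:**
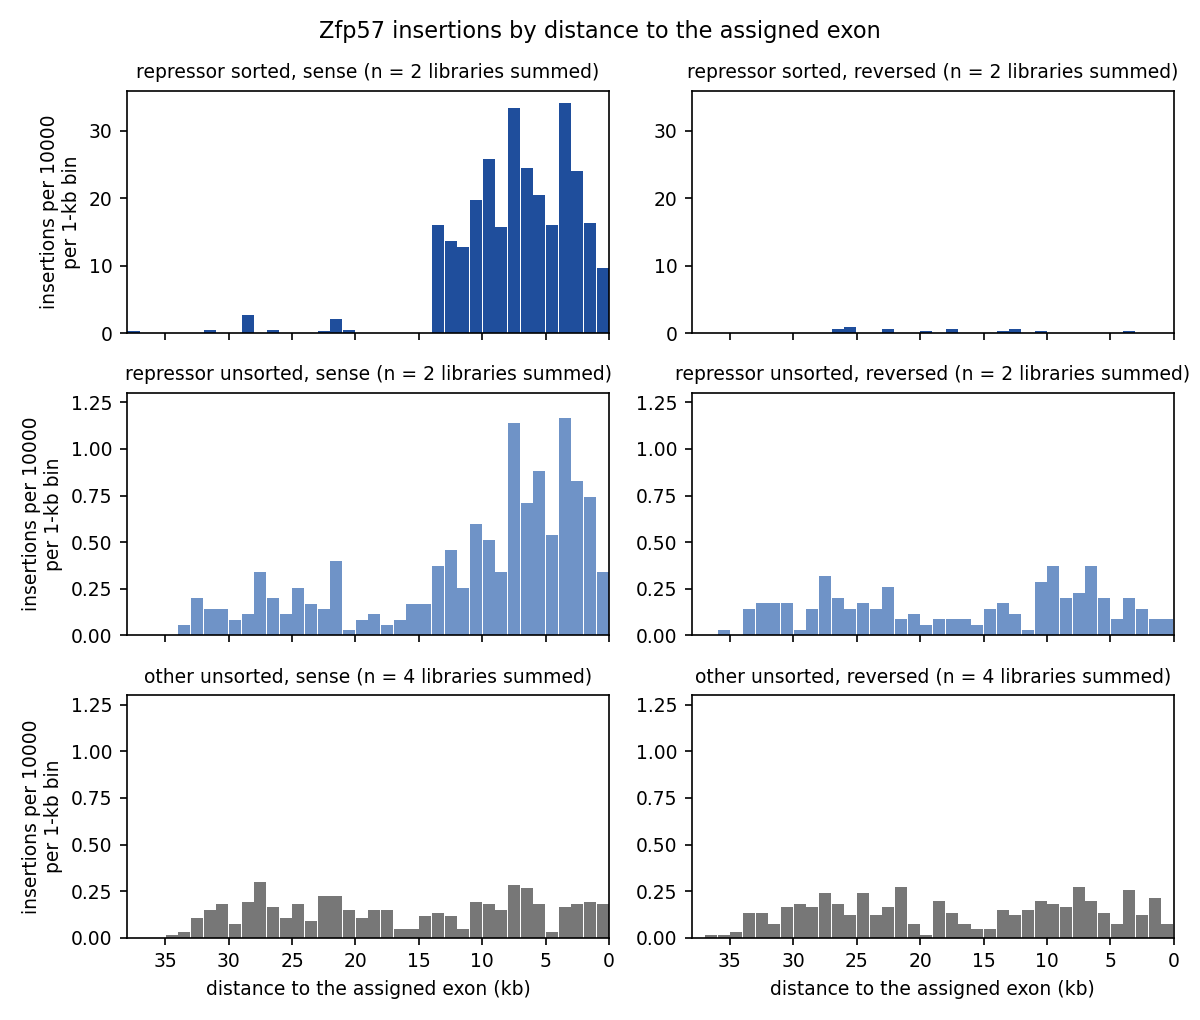
Zfp57 insertions per 10000 insertions of the libraries in 1-kb bins of distance to the assigned exon (kb, exon at the right), sense and reversed, for repressor sorted, repressor unsorted and other unsorted libraries, each summed; the vertical scale of the sorted row differs from that of the other rows. The sorted sense signal is densest in the first 13894 bp, with 26 insertions beyond 20 kb, and the same block is raised in the repressor unsorted row, while the reversed row of the repressor sorted libraries holds 3 and 2 insertions there.

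The block's edge fell inside H2-M5, an MHC class I-like gene on the opposite strand (chr17:36984061-36989537). It lay 980 bp inside the start of that gene, in its exon 3 (chr17:36988505-36988780). The interval between H2-M5 and Zfp57 (chr17:36989538-37001162) held 476 and 452 repressor sorted insertions, 85.6% of those at Zfp57, against 65.2% in repressor unsorted and 36.4% in other unsorted cells. Inside the Zfp57 gene body lay 32 and 34 (17.6 per 10000, against 0.283 in other unsorted cells), and inside H2-M5 37 and 27.

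Because the reversed lists turn each insertion around, every sense insertion at Zfp57 reappeared there under another gene. Of the repressor sorted ones, 545 and 513 were assigned to H2-M5, and these made up all 1058 reversed insertions by which H2-M5 was called in the reversed repressor table. In the sense lists H2-M5 itself had 3 and 2 (log2 odds ratio −0.91, SE 0.65). The reversed call of H2-M5 and the sense call of Zfp57 thus rest on the same integrations.

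Of the 18 genes with assigned exons within 200 kb, 15 had under 3 repressor sorted insertions and were not tested. The other 3 were not called, where 8.18% of all tested genes were, so their count says little. They were H2-M5, 2410137M14Rik (4 and 1, log2 odds ratio 0.28, SE 0.66) and Znrd1, an RNA polymerase I subunit gene (3 and 2, −0.38, SE 0.65). Mog, the myelin gene directly downstream of Zfp57, held 1 and 0. In the PTGR screen 1 of 10 tested neighbours was called, against 0.666% of all tested genes: Trim26, a ubiquitin ligase gene, with 43 and 44 insertions (3.71, SE 0.25). In the activator screen 0 of 4 were called, against 4.64% of all.

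The same positions recurred between repressor libraries. Of 1390 distinct sense positions at Zfp57, 1011 were in 1 library, 271 in 2, 83 in 3 and 25 in 4. Of the 379 found more than once, 281 were in repressor libraries alone and 202 were in both repressor sorted libraries. Of the 25 found in 4 libraries, 13 were in all 4 repressor libraries, and these lay between 3145 and 12335 bp before exon 2. Of 551 reversed positions 46 were found more than once, 8.35% against 27.3% of sense positions. These shares are not matched for number: the repressor sorted libraries held 10 and 5 reversed insertions against 564 and 520 sense ones. Of those 10 and 5 reversed positions, 4 were in both libraries. Whether recurrence differs by orientation was thus not tested.

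The 202 positions shared by the repressor sorted libraries were 35.8% of replicate 1 and 38.8% of replicate 2, where all genes together shared 18.8% and 27.5%. Repressor unsorted replicate 1 shared 27.3% and 22.7% of its Zfp57 positions with the sorted replicates 1 and 2, and unsorted replicate 2 shared 43.0% and 37.0%. Over all genes those 4 shares were 1.09%, 0.477%, 1.26% and 0.749%. The repressor unsorted libraries shared 41 Zfp57 positions with each other, 18.6% and 20.5%, where all genes shared 4.08% and 4.02%. Unsorted and sorted libraries of the repressor screen thus held many identical Zfp57 positions, and whether these were 1 integration in related cells or separate integrations was not tested. Sharing above the level of all genes was not confined to the repressor screen. That level is not matched for density: neighbouring Zfp57 positions had a median gap of 13 and 14 bp in the repressor sorted libraries. Separate insertions can meet at 1 position more often in so dense a stretch, and how much this adds was not tested. Of the Zfp57 positions of PTGR unsorted replicates 1 and 2, 14.7% and 12.9% were in repressor sorted replicate 1, where all genes shared 0.207% and 0.211%. For activator unsorted replicates 1 and 2 the shares were 13.3% and 7.69%, where all genes shared 0.171% and 0.175%. Counted the other way, repressor sorted replicate 1 shared 3.37% and 0.709% of its Zfp57 positions with PTGR unsorted replicates 1 and 2.

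**Figure D4:**
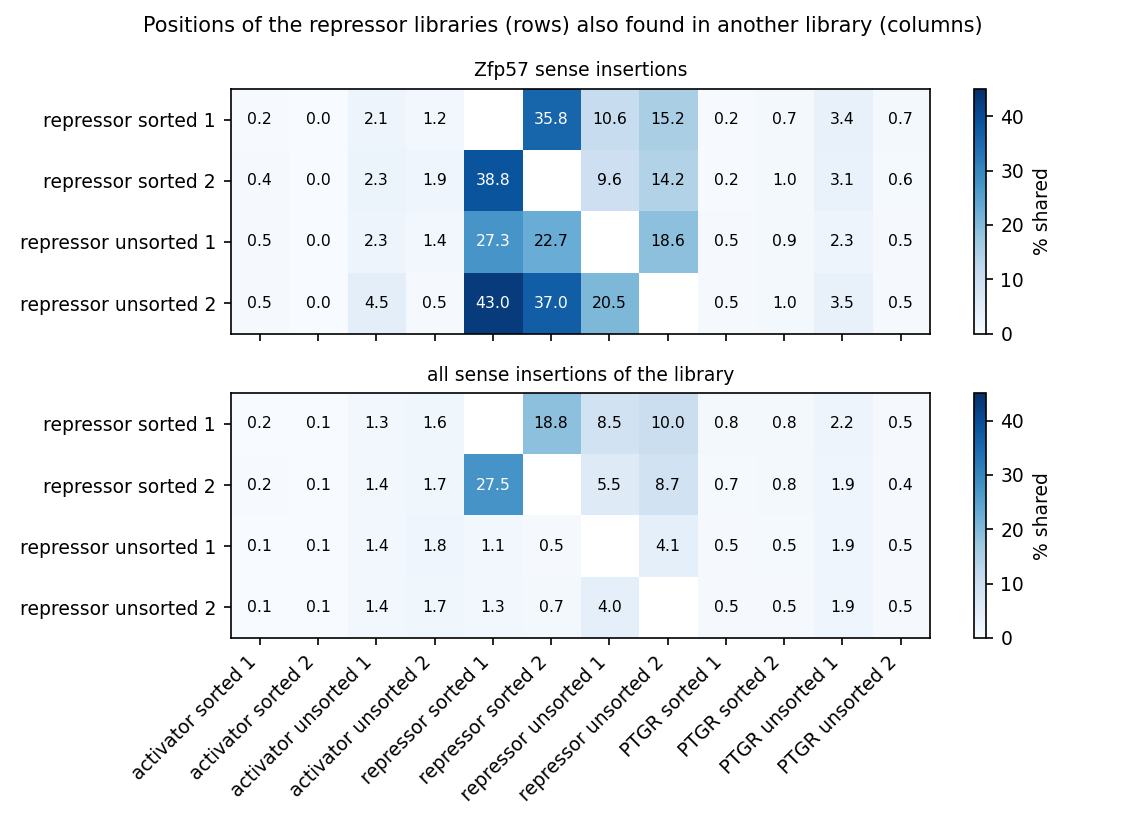
Percent of the positions of each repressor library (rows) also found in each other library (columns), for Zfp57 and for all genes. Zfp57 positions of the repressor unsorted libraries were found in the repressor sorted ones at 22.7% to 43.0%, against 0.477% to 1.26% over all genes. The shares over all genes are not matched for the density of positions at Zfp57.

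With every position found in more than 1 library left out of all libraries, 544 repressor sorted insertions remained against 430 in the background, and the log2 odds ratio was 5.64 (SE 0.09). This removes exact matches only. Positions were dense: the median gap between neighbouring positions was 13 and 14 bp in the repressor sorted libraries and 72 and 74 bp in the repressor unsorted ones. The fullest windows of 100 bp, chr17:36996300-36996399 and chr17:36999300-36999399, held 24 sorted insertions each over both replicates.

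Corepressor genes on which Zfp57 is known to rely were enriched in the same screen, while DNA methylation genes were not called. Of 17 genes listed for the corepressor and for imprint maintenance, 12 could be tested in the repressor screen and 7 were called, against 8.18% of all tested genes. The median log2 odds ratio of the 12 was 4.36, against −0.39 over all tested genes. It leaves out the 5 listed genes with under 3 sorted insertions. The list was written with earlier results of these data known, so its share of calls is a description and not a test. The Zfp57 value of 5.32 was close to that of Setdb1 and below that of Cbx3.

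Trim28, the corepressor that KRAB domains bind, held 331 and 302 insertions (4.70, SE 0.08). Setdb1 held 19 and 18 (5.34, SE 0.37), and its cofactor Atf7ip 284 and 276 (4.34, SE 0.08). The HP1 genes, whose proteins bind methylated H3K9, were all called: Cbx3 with 34 and 49 (5.94, SE 0.29), Cbx1 with 52 and 60 (4.52, SE 0.18) and Cbx5 with 65 and 47 (4.38, SE 0.18). Ctcf, which binds the unmethylated allele at some imprinted regions, held 28 and 15 (4.91, SE 0.32).

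Among the DNA methylation genes, Dnmt3b, a de novo methyltransferase, held 3 and 5 repressor sorted insertions (−1.09, SE 0.51) and Uhrf1, the partner of the maintenance enzyme, 2 and 1 (−0.98, SE 0.84). The maintenance enzyme Dnmt1 held 1 and 0, Dnmt3a 2 and 0 and the cofactor Dnmt3l 0 and 0, too few to test. Zfp445, a second KRAB zinc finger protein of imprint maintenance, held 0 sorted and 50 background insertions, and Dppa3, which protects maternal methylation, 1 and 1. The chromatin genes Daxx (5 and 1, 1.96, SE 0.63), Arid4a (3 and 1, 1.34, SE 0.75) and Atrx (3 and 2, −1.04, SE 0.65) did not pass.

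Of the same list 0 of 6 tested genes were called in the activator screen, against 4.64% of all tested genes. In the PTGR screen 1 of 15 was called, against 0.666% of all, and it was Trim28 (187 and 122, 1.97, SE 0.10). Unlike Zfp57, Trim28 was called for its reversed insertions too, of which the repressor sorted libraries held 59 and the PTGR sorted libraries 218.

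**Figure D5:**
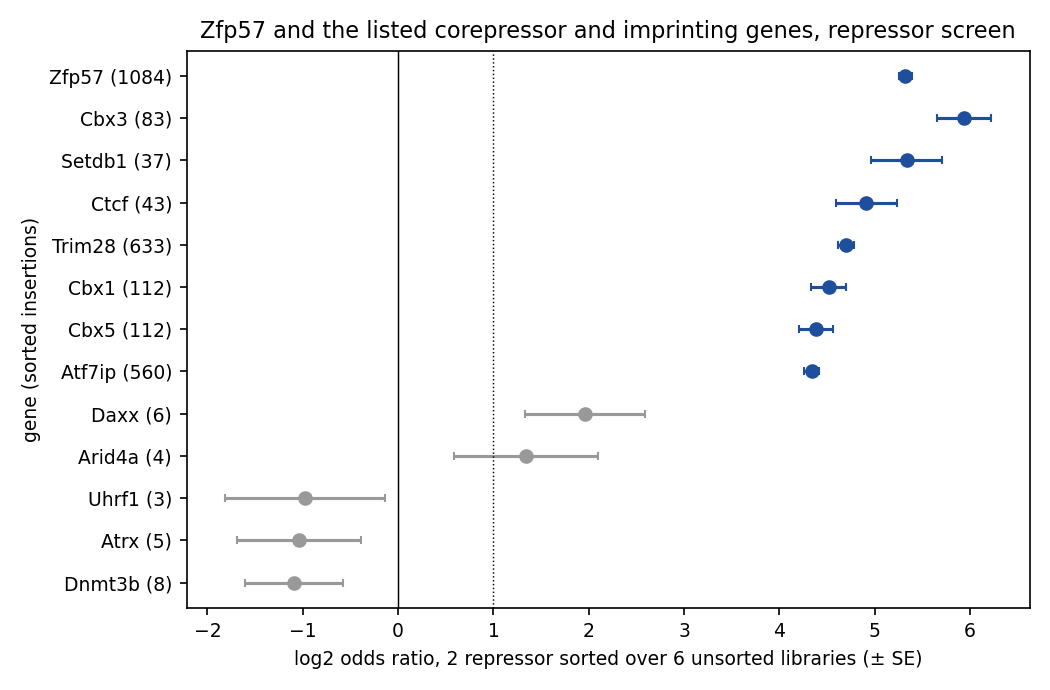
Log2 odds ratio in the repressor screen (2 sorted over 6 unsorted libraries, bars are the SE from counting) for Zfp57 and the tested genes of the list, with the number of sorted insertions in brackets. Zfp57 at 5.32 lies among the called genes between 4.34 and 5.94, and the 5 genes not called lie between −1.09 and 1.96.

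The genes whose insertion shares over the 12 libraries followed that of Zfp57 most closely were Zfp872 (Pearson r 0.995), Gm6871 (0.993), Zfp248 (0.990), Rcor2 (0.989), which encodes a CoREST corepressor, and Phf11d (0.989), out of 3474 genes with at least 100 insertions. These correlations are a description over libraries that fall into 6 groups and differ in depth. In the repressor sorted libraries Zfp872 held 281 and 220 insertions, Rcor2 347 and 267, Gm6871 92 and 71, Phf11d 62 and 54 and Zfp248 41 and 31.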

How the data were processed

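The 12 libraries, 2 for each of 6 groups, held insertion sites found by inverse PCR followed by sequencing. Per the submitters' processing notes and the study's methods, the authors trimmed reads with Trim Galore 0.6.0, aligned first mates to mm10 with Bowtie2, removed duplicate and low-quality alignments with SAMtools 1.9, and gave every insertion the closest exon downstream of it in a protein-coding gene. The deposited lists gave 1 line per insertion with its position, assigned exon and distance, once with the mapped (sense) strand and once with the strand reversed. The deposited gene tables held whole-number counts of insertions per gene, summed by the authors over libraries. Their columns of odds ratios, p-values and hit calls were not used. For Zfp57 the sums made here equalled the deposited counts in the activator and repressor screens and in the background. In the PTGR screen 44 unique positions stood against 48 deposited, since repeated lines were counted once here.

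From the lists, unique positions within 200 kb were counted per gene and library. As in the study's methods, Fisher's exact test (one-sided, scipy 1.17.1) set the summed sorted libraries of a screen against the background, which pools the 6 unsorted libraries. Genes with at least 3 sorted insertions were tested, with Benjamini-Hochberg adjustment. The SE of a log2 odds ratio is from counting. Spread between libraries entered through exact permutation tests and edgeR 4.0.16 (quasi-likelihood, TMM, 12 libraries), with DESeq2 1.42.0 as an alternative. For the effect in a screen, edgeR and DESeq2 set its sorted libraries against the unsorted libraries of that screen alone. The p-values of these tests rest on the spread between these libraries and treat the libraries as independent. Fisher p-values treat each position of each library as independent and take in no such spread. On simulated counts for the repressor screen over 20409 genes, the Fisher test called 50% of 100 genes raised 4-fold, 100% of 100 raised 16-fold and 0 of 3168 unchanged genes. On 2678 genes edgeR called 70.4% and 100% of those raised 4-fold and 16-fold for repressor sorted against unsorted cells, and 7 of 2480 unchanged genes. For the repressor effect against the activator effect it called 29.6% and 98%, and 4 of 2480 unchanged genes. The counts for the Fisher test were simulated with no spread between libraries, and those for edgeR with the same dispersion for every gene. These rates hold for those settings only and do not say how often the tests call unchanged genes in the real libraries.

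Gene models are from GENCODE M21 on the same assembly, a release other than the authors'. Exon starts in the lists matched it for Zfp57. Sequences were read from that assembly. The genes named are Zfp57, a list of 17 genes of its pathway, the 18 genes with assigned exons within 200 kb, and the 5 genes with the most similar log2(insertions per 10000 + 0.5) over libraries. The gene, lists and tests were chosen with earlier results of these data known. Alternatives covered the background, what counts as an insertion, the maximum distance (50 kb or none), the minimum count (1 or 10), the test, the replicate block and leaving out each library. Sequencing reads were not analysed here.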

Additional observations from a re-analysis of the deposited data

Results flagged for a closer look

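The Zfp57 effect differed between screens by edgeR's test of the difference itself. The repressor effect exceeded the activator effect by 5.30 on the log2 scale (adjusted p = 4.82e-12, range over the alternatives 4.75 to 5.64). It exceeded the PTGR effect by 5.97 (adjusted p = 1.26e-15, range 5.24 to 6.22). Zfp57 was higher in 2 of 2 repressor sorted libraries than in every unsorted library, though these 2 libraries shared many positions.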

How the results depend on the processing

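Of 202 alternatives over 16 results, 183 kept direction and call. The repressor enrichment of sense insertions kept both in 22 of 22 (4.64 to 5.87; 5.12 to 5.57 without each library in turn), as did orientation (4.90 to 6.87), the exon calls (2 of 3) and the difference between screens. A two-sided test called the PTGR sense value of −1.02. The activator sense value was −0.88 and turned to 0.18 with edgeR without the replicate block, 0.17 with the block, 0.13 with edgeR on the screen's own libraries and 0.31 with DESeq2. The activator reversed value was −0.16 and turned to 0.35 with edgeR and 0.39 with the block (−1.80 to 0.47 without each library). The repressor reversed value was −0.11 and turned to 0.0805 with positions within 10 bp joined, 0.52 with edgeR and 0.50 with the block (−0.43 to 0.0728 without each library). None of these turned values passed a threshold. The excess in repressor unsorted cells was 0.53 with shared positions left out and 1.13 to 1.29 without each library, and lost its call each time. The other 5 of 12 alternatives kept it. The cause was not tested. Per the protocol, unsorted and sorted cells came from 1 transduced pool, but the labels do not say that equal numbers mark 1 pool. Same-numbered libraries deviated together with correlations of 0.06, −0.02 and 0.29 in the activator, repressor and PTGR screens. Over all genes, sorted replicates 1 and 2 shared 5.17% and 19.2% of positions with the same-numbered unsorted library and 2.35% and 1.39% with the other one in the activator screen, 19.5% and 6.98% against 0.397% and 1.93% in the PTGR screen, and 8.50% and 8.72% against 10.0% and 5.47% in the repressor screen. With the replicate block the repressor value was 5.49, the PTGR value −0.51 and the differences between screens 5.32 and 5.99, and no call changed. The block moved the genes called in the repressor contrast from 215 to 211. The activator sorted libraries held 6 and 7 Zfp57 insertions, which limits the precision there.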
